A study of Mus musculus with 6 samples.

Results

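The interleukin genes described here were the 28 genes of the count table whose symbol starts with Il followed directly by a digit, out of 13730 genes in all. They comprised 20 receptor chains, 5 ligands (Il1a, Il1b, Il16, Il24 and Il34), the receptor antagonist Il1rn, the secreted IL-18 binding protein Il18bp, and the enzyme Il4i1, an L-amino acid oxidase named for its induction by IL-4. By family, 9 belonged to the IL-1 family, 6 to the common gamma chain and IL-4/IL-13 group, 4 to the IL-17 receptors, 4 to the IL-10 family, 3 to the IL-6 family that signals through gp130, and 2 (Il16 and Il34) to no family shared with another member. Other interleukins and receptors were not analysed here.

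Interleukins are secreted proteins through which immune, stromal and tumor cells signal to each other. IL-1 family receptors and IL-17 receptors pass their signal to NF-kB and MAP kinases through adaptor proteins, whereas receptors of the IL-6, IL-10 and common gamma chain families carry JAK kinases that phosphorylate STAT transcription factors. Decoy and antagonist proteins such as IL-18 binding protein and the IL-1 receptor antagonist capture the ligand or occupy the receptor without signaling. In breast tumors, infiltrating myeloid and lymphoid cells are known sources of interleukins, and tumor cells and fibroblasts carry several of the receptors.

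RNA was sequenced from 6 mammary tumors, of which 3 were controls and 3 had received SS. Each tumor was grown from 1000000 C0321 cells, mixed with Matrigel and PBS at equal volume, in the mammary fat pad of a female FVB mouse aged 6 to 10 weeks. C0321 is a single mouse triple-negative breast cancer (TNBC) line, generated in earlier work from an Lfng-deficient mouse on the FVB background and described as claudin-low, so both groups carry the same Lfng lesion in the tumor cells within a host with an intact immune system. Lfng was counted at 4.64 to 6.395 counts per 1000000 counts of the library (CPM) across the tumors, and whether these reads came from host cells was not tested. SS was given by mouth every day for 14 days at 60 mg/kg, starting once a mass could be felt. The study calls SS sulindac sulfide, the active metabolite of the anti-inflammatory drug sulindac, the sample labels spell it Sulindac Sulfate, and the series design names saline as the control treatment. The comparison asked which interleukin genes differed between SS-treated and control tumors. Nothing in the labels ties tumors of the same number to each other.

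The control libraries held 12314368 to 24441522 counts and the SS libraries 8468914 to 13696665, so 3 counts, taken as the limit of detection per library, corresponded to 0.123 to 0.354 CPM. The libraries were from whole tumors. Summed CPM of 3 mesenchymal markers were 6835 to 8155 in control and 6067 to 8868 in SS tumors, and those of 6 mammary epithelial markers were 508 to 702 and 493 to 611. Esr1, Pgr and Erbb2, which define the triple-negative label by their absence as proteins, were present as RNA at a summed 25.0 to 30.5 and 23.3 to 26.9 CPM. Skeletal muscle markers ranged from 873 to 9266 CPM in control and from 282 to 17794 CPM in SS tumors, so muscle RNA varied widely in both groups. Lymphocytes were thinly covered, with 4 of 9 T cell markers and 1 of 4 B cell markers in the table. In such bulk samples, fewer cells of a type and less RNA per cell cannot be told apart.

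Receptor chains made up most of the interleukin counts. The 28 genes together reached 220 ± 12.4 CPM in control tumors and 211 ± 13.9 CPM in SS tumors (SD, n = 3 each, exact two-sided permutation p = 0.6). Il17ra, Il6st, Il13ra1, Il11ra1 and Il16 supplied 81.8 to 88.4% of that sum in every tumor. For Il17ra alone the share was 40.4%, 39.5% and 31.3% in controls, compared with 31.7%, 26.5% and 33.6% after SS. The SS values of this share overlapped the control values (37.1% ± 4.995 in control and 30.6% ± 3.66 in SS tumors, exact two-sided permutation p = 0.3). At the other end, 15 of the 28 genes had a mean level under 1 CPM, and 20 of the 28 had counts in all 6 tumors.

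**Figure D1:**
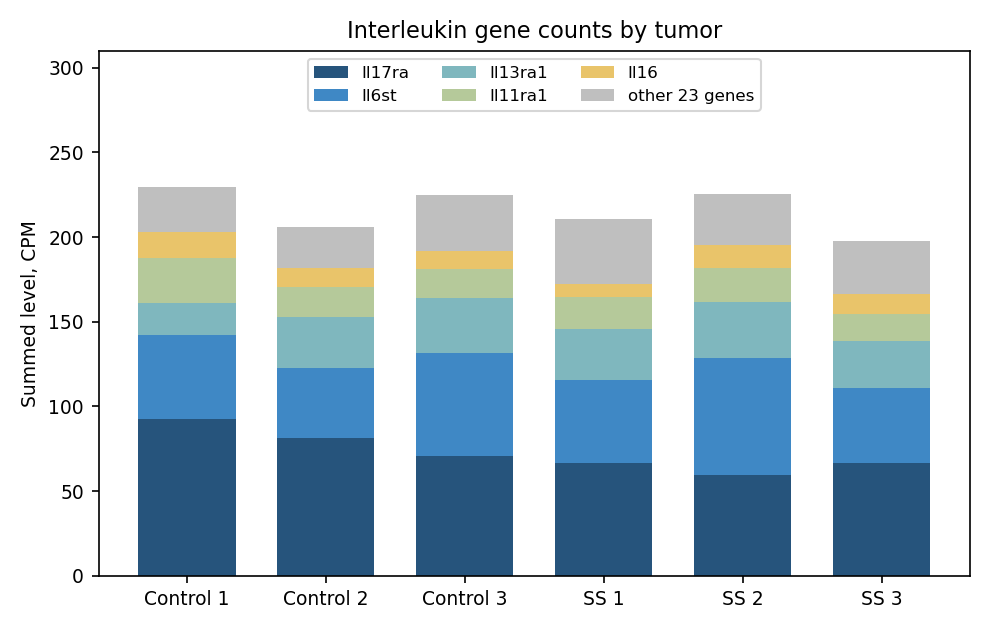
Summed level of the 28 interleukin genes in each tumor in CPM, with each bar divided among the 5 genes of highest mean level and the other 23 genes together. Bar heights lie between 197 and 229 CPM, and Il17ra is the largest block in 5 of the 6 tumors.

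Levels of different genes can be compared only per length of transcript. By CPM per kilobase averaged over the 6 tumors, Il11ra1 (9.77, range 7.998 to 13.2), Il17ra (9.40, range 7.70 to 11.9), Il13ra1 (7.74, range 5.06 to 8.95) and Il6st (6.04, range 4.76 to 7.92) came first. The ranges of these 4 receptors overlapped from each gene to the next, so the order of adjacent genes was not resolved. Only Il11ra1 and Il6st had ranges that did not overlap, narrowly, with the lowest Il11ra1 value at 7.998 and the highest Il6st value at 7.92. Il18bp followed at 3.76 CPM per kilobase, Il1b at 2.27 and Il16 at 2.24. The sparsest chains were Il1r1 at 0.0331 and Il10ra at 0.0302 CPM per kilobase, at or near the limit of detection in most tumors. The scale between genes is itself uncertain in this table, since B2m, which nearly all cells transcribe abundantly, was listed at only 1.66 to 3.84 CPM while Gapdh was at 429 to 580 CPM.

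**Figure D2:**
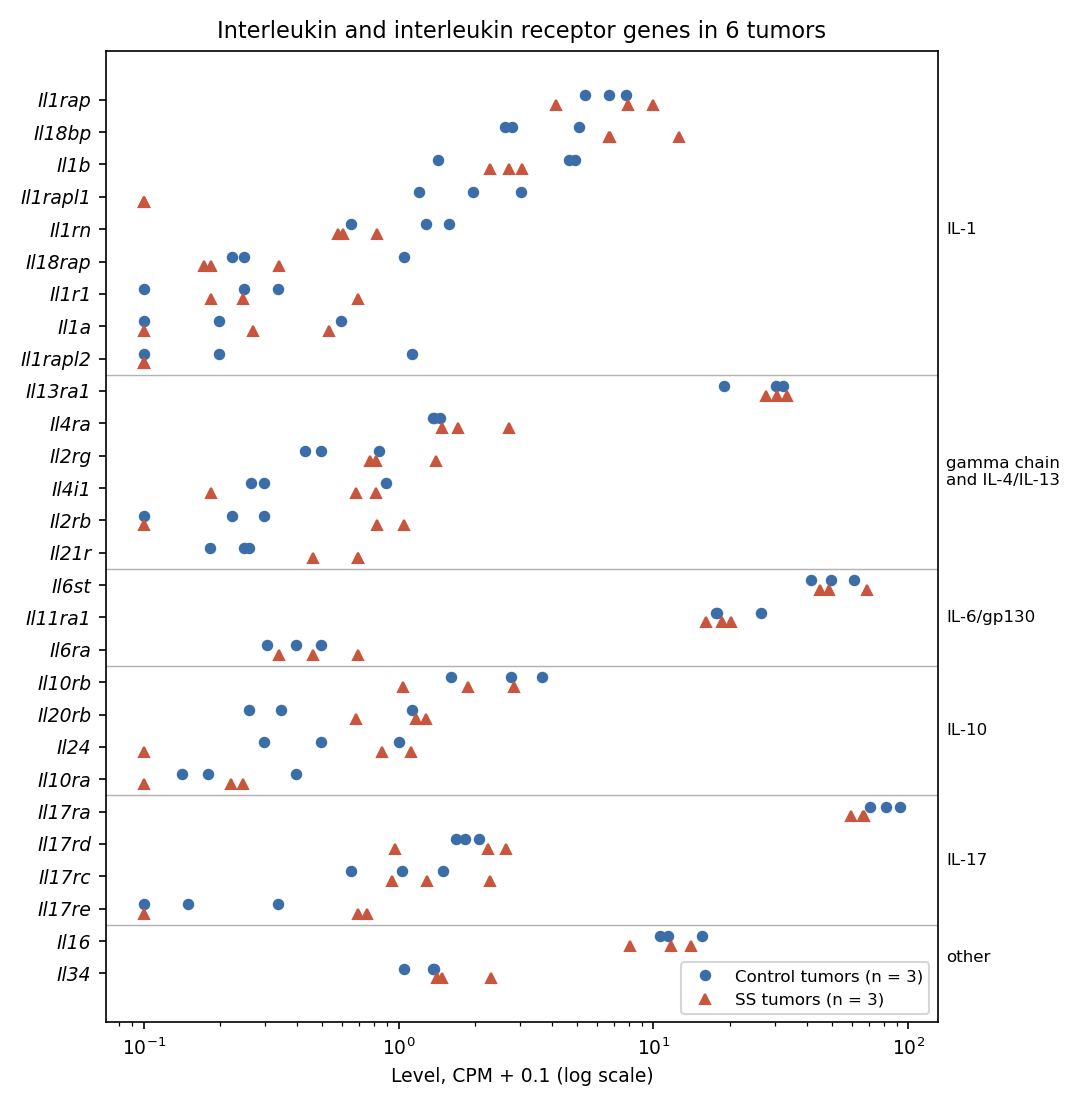
Level of each interleukin gene in each tumor in CPM on a log axis, with control and SS tumors marked separately. Levels run from above 50 CPM for Il17ra down to genes at 0 in some tumors, and the control and SS points intermingle for most genes.

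Differences between the groups were tested gene by gene with edgeR's quasi-likelihood test over the 10902 genes that passed its filter on low counts. Of the 28 interleukin genes, 15 passed that filter and 13 did not, and among those 13 the highest count in any tumor was 36 and 7 had a 0 in some tumor. No gene of the whole table passed an adjusted p (Benjamini-Hochberg) of 0.05, that is, edgeR called 0% of the genes tested, while 6.36% had an unadjusted p under 0.05 (3.19% higher and 3.16% lower in SS tumors). Among the interleukin genes, 3 stood under that unadjusted threshold, namely Il18bp, higher in SS tumors, and Il17ra and Il1rapl1, lower. Of these, Il1rapl1 passed the filter only through its control tumors, so a difference was built into its place in this count. DESeq2 called 0.58% of the genes to which it gave an adjusted p and gave one to only 5 of the interleukin genes (Il11ra1, Il17ra, Il13ra1, Il6st and Il16), none of which it called. The other 10 of the 15 tested members, Il18bp and Il1rapl1 included, could not be called by it. Across the 15 tested members the median log2 fold change was 0.089, compared with -0.0013 over all genes tested, with 9 values above 0 and 6 below. For 6 of the 28 genes (21.4%) the control and SS tumors did not overlap, against 12.1% of all genes in the table (5.97% higher and 6.17% lower in SS tumors). Il18bp, Il4ra, Il34 and Il21r were higher and Il17ra and Il1rapl1 lower in each SS tumor. With 3 tumors against 3, an exact two-sided permutation test cannot go below p = 0.1, which is the value of each of these 6 genes.

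**Figure D3:**
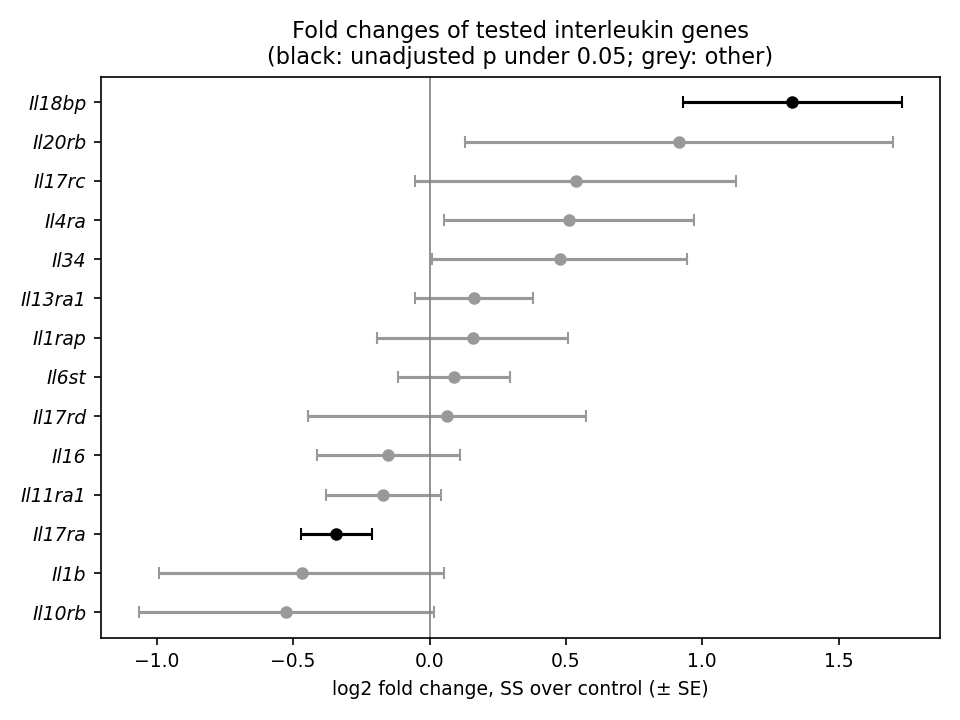
Log2 fold change (SS over control) from edgeR for the tested interleukin genes other than Il1rapl1, whose SS libraries were all at 0, with bars of ± 1 SE. Il18bp lies farthest to the right at 1.33, Il17ra lies left of 0 at -0.34 with a short bar, and 12 genes in grey had an unadjusted p of 0.05 or more.

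Il18bp encodes a secreted protein that binds IL-18 and keeps it from its receptor. Il18bp (chromosome 7, 102015077 to 102018156, minus strand, mm10) reached 2.68, 2.504 and 5.001 CPM in controls, compared with 12.5, 6.67 and 6.58 CPM after SS. Each SS tumor was above each control tumor, with SS tumor 1 well above the other two and control tumor 3 closest to the SS group. The means were 3.40 ± 1.39 and 8.57 ± 3.37 CPM (SD, n = 3 each), 2.52-fold higher with SS, and the log2 fold change by edgeR was 1.33 (SE 0.40, unadjusted p = 0.011, adjusted p = 0.77). Without SS tumor 1 the log2 fold change was 0.95 and its unadjusted edgeR p no longer lay under the threshold. Il18rap, a subunit of the IL-18 receptor, stayed between 0.0725 and 0.947 CPM in all tumors. Among dendritic cell markers, of which 6 of 7 were in the table and Clec9a was not analysed here, the summed level was 52.4 to 83.6 CPM in control tumors and 95.4 to 184 CPM in SS tumors (exact two-sided permutation p = 0.1). Nearly all of that sum was Itgax, which encodes CD11c, at 49.4 to 66.8 CPM in control and 89.5 to 173 CPM in SS tumors (log2 fold change 1.24, SE 0.24, edgeR adjusted p = 0.68). The other 5 markers of the list overlapped between groups, with means of 1.64 and 3.32 CPM in control and SS tumors for Batf3, 0.901 and 0.757 for Zbtb46, 4.43 and 4.29 for Ccr7, 0.491 and 0.501 for Flt3, and 0.323 and 0.0794 for Xcr1. Macrophage markers summed to 714 to 848 CPM in control and 754 to 937 CPM in SS tumors. The part of these cells in the Il18bp difference was not tested.

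The other members that were higher in each SS tumor were 2 receptor chains, Il4ra and Il21r, and the ligand Il34. Il4ra, the chain that binds IL-4 and serves both IL-4 and IL-13 receptors, was at 1.26, 1.28 and 1.35 CPM in control and 1.38, 2.62 and 1.60 CPM in SS tumors. The lowest SS tumor lay just above the highest control tumor. The means were 1.30 ± 0.0483 and 1.87 ± 0.662 CPM (SD, n = 3 each), with a log2 fold change of 0.51 (SE 0.46, edgeR adjusted p = 0.89), and the groups overlapped after quantile normalization and when library scaling was set without the filter on low counts. Il21r, the IL-21 receptor of lymphocytes, had 2, 3 and 2 counts in control and 5, 5 and 7 counts in SS tumors. Its CPM did not overlap (0.0820 to 0.158 in control, 0.362 to 0.595 in SS tumors), but it had too few counts to be tested and the control values were at or under the 3-count limit. Il4ra and Il21r are neighbors on chromosome 7, with 23.95 kb between them. Il34, a ligand of the CSF-1 receptor on macrophages, was at 0.947, 1.28 and 1.27 CPM in control and 1.38, 1.31 and 2.195 CPM in SS tumors. Of the SS tumors, 2 were barely above the control range and 1 stood higher, and the log2 fold change was 0.48 (SE 0.47, edgeR adjusted p = 0.90). After quantile normalization the Il34 groups overlapped. Csf1r, which encodes its receptor, was at 321 to 436 CPM in control and 359 to 447 CPM in SS tumors.

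Il17ra, the chain shared by the receptors of IL-17A, IL-17C, IL-17E and IL-17F, was the most counted interleukin gene. Il17ra (chromosome 6, 120463197 to 120483728, plus strand, mm10) was at 92.6, 81.4 and 70.4 CPM in control and 66.7, 59.7 and 66.3 CPM in SS tumors. All SS tumors were below all control tumors, although control tumor 3 was close to the SS values. The means were 81.5 ± 11.1 and 64.2 ± 3.94 CPM (SD, n = 3 each), and the log2 fold change was -0.34 (SE 0.13, edgeR unadjusted p = 0.031, adjusted p = 0.77). The unadjusted p by edgeR was at or over 0.05 without control tumor 1 or 2 or without any single SS tumor. Its partner chains had too few counts to show whether they shared a change of this size. Il17rc, which pairs with Il17ra to bind IL-17A and IL-17F, was at 0.553 to 1.39 CPM in control and 0.844 to 2.17 CPM in SS tumors, and Il17rd was at 1.58 to 1.97 and 0.870 to 2.53 CPM. Both overlapped between groups, with log2 fold changes of 0.54 (SE 0.59) and 0.06 (SE 0.51). Il17re, the IL-17C receptor chain, was at 0 in 1 tumor of each group and at most 0.652 CPM.

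Il1rapl1 and Il1rapl2 are X-linked members of the IL-1 receptor family that are known mainly as synaptic adhesion proteins of neurons. Il1rapl1 (chromosome X, 86747242 to 88115624, minus strand, mm10, 1368 kb long) had 37, 38 and 27 counts in controls and 0 counts in each of the SS tumors. In CPM the control tumors were at 2.92, 1.87 and 1.11, and every SS tumor was at 0. With the 3-count limit of each SS library in place of its 0, the control mean of 1.96 ± 0.911 CPM (SD, n = 3) was at least 7.12-fold higher than the SS mean, and at least 5.38-fold higher without the highest control tumor. Scaled to the smallest library, the control counts would have been 25.4, 15.7 and 9.36, above the limit of 3. The edgeR unadjusted p was 0.00058 and the adjusted p 0.68. DESeq2 run on all genes with no filter, a setting added after the data were seen, gave Il1rapl1 an adjusted p of 0.0048 and called 0.293% of the genes. Zeros throughout the SS group were found in 1.43% of all genes and zeros throughout the control group in 0.146%. The gene passed the count filter only through its control tumors, so a difference was built into its being tested. Il1rapl2 had 13, 2 and 0 counts in control and none in SS tumors, which left it without a usable difference. The 4 of 5 neuronal markers in the table (Snap25 was not analysed here) summed to 10.6 to 14.2 CPM in control and 6.09 to 19.5 CPM in SS tumors. The part of nerve cells in the Il1rapl1 difference was not tested.

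**Figure D4:**
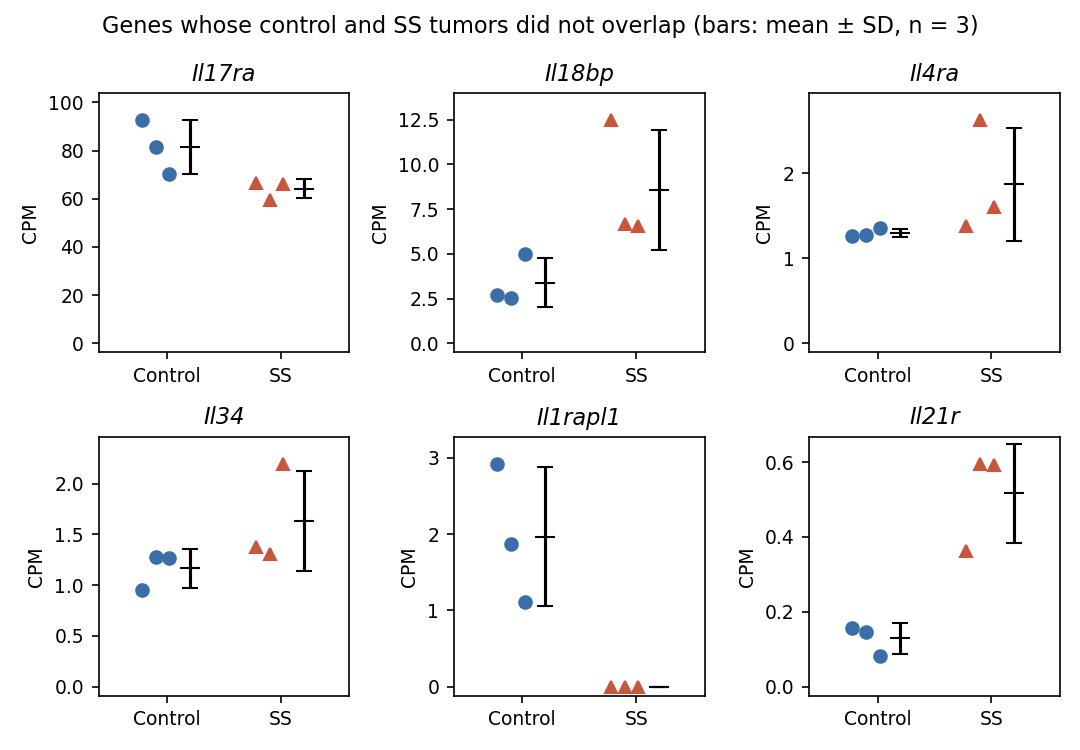
CPM of each tumor for the 6 interleukin genes whose control and SS tumors did not overlap, with bars showing the mean and SD of 3 tumors. Il1rapl1 is at 0 in all SS tumors, the nearest Il18bp tumors are at 5.001 and 6.58 CPM, and the nearest tumors of the 2 groups lie close together for Il17ra, Il4ra and Il34.

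The bases just upstream of 4 of these genes are printed because the genes did not overlap between the groups and have a RefSeq start on GRCm38.p6. Each line holds the 250 bases before the start, 5′ to 3′ on the strand of the gene, with matches to 5 searched motifs in capitals. The deposited transcript began 76 bases inside the RefSeq start for Il18bp, 11 for Il4ra, 0 for Il21r and 324 for Il1rapl1.
Il18bp (chr7:102018233-102018482, minus strand): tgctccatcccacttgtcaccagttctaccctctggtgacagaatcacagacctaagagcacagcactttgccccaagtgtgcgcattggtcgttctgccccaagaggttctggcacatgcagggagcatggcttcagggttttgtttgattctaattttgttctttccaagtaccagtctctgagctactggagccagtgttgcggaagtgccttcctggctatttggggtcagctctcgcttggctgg
Il4ra (chr7:125552021-125552270, plus strand): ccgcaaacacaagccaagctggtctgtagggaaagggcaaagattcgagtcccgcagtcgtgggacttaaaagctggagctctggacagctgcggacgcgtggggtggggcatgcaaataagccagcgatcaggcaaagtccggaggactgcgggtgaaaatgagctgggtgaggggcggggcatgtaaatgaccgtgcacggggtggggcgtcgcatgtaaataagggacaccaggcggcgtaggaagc
Il21r (chr7:125603179-125603428, plus strand): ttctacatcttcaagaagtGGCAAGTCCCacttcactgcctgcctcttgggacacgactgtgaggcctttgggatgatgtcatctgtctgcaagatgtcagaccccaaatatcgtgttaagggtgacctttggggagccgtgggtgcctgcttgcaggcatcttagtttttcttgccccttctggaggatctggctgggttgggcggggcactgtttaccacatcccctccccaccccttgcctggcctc
Il1rapl1 (chrX:88115949-88116198, minus strand): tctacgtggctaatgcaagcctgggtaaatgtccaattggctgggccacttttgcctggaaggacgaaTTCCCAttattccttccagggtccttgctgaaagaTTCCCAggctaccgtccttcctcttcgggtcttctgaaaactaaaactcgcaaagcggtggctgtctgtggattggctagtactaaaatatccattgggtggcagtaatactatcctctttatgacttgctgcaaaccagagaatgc
The motifs were searched on both strands, and their matches may share bases. They were TTCNNNGAA for STAT proteins, TGANTCA for AP-1, TGGGAA for RBPJ, the DNA-binding partner of Notch, the core of the interferon-stimulated response element for interferon regulatory factors, and a loose NF-kB site. The Il18bp and Il4ra windows held none of the 5 motifs. The Il21r window held 1 NF-kB match, beginning at -231 from the start, and the Il1rapl1 window held 2 RBPJ matches, at -182 and -147. Of the 28 members, 22 had at least 1 window. Among those 22, no member held the STAT or the interferon regulatory factor motif, which occurred in 7.02% and 2.98% of all 32851 windows of this length. These 22 members had 28 windows. The AP-1 motif was found in 3 of them (in Il16, Il1a and Il1rn), beside 6.75% of all windows. The NF-kB motif was in 9 of the 28 (9 members), beside 17.6% of all windows. For the RBPJ motif it was 14 of the 28 (12 members), beside 21.6% of all windows. The Il1rn windows chr2:24345041-24345290 and chr2:24345121-24345370 overlapped, and the same RBPJ match was counted in both, at -121 and at -201. Whether the members differed from other genes in these motifs was not tested. A match is only a run of letters, and members with several starts had more windows to hold one.

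Within the IL-1 family, the ligand Il1b, a driver of inflammation released by activated myeloid cells, was at 4.58, 1.33 and 4.84 CPM in control and 2.17, 2.62 and 2.95 CPM in SS tumors. The SS tumors lay close together inside the spread of the control tumors (log2 fold change -0.47, SE 0.52, edgeR adjusted p = 0.92). Il1rn, which blocks the IL-1 receptor, was at 0.553, 1.18 and 1.48 CPM in control and 0.725, 0.476 and 0.506 CPM in SS tumors and had too few counts to be tested. The log2 ratio of Il1rn to Il1b, with 1 CPM added to both, was -1.85, -0.09 and -1.24 in control and -0.88, -1.29 and -1.39 in SS tumors. The ratio overlapped between groups (difference -0.13, exact two-sided permutation p = 0.8), and the difference was -0.25 with 0.5 CPM added and -0.03 with 2 CPM added. Il1rap, the accessory chain that IL-1 and IL-33 receptors share, was the most counted receptor of the family at 5.29 to 7.71 CPM in control and 4.05 to 9.86 CPM in SS tumors. Il1r1, the signaling receptor for IL-1, did not exceed 0.595 CPM in any tumor, and Il1a, the second IL-1 ligand, did not exceed 0.492 CPM.

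The IL-6 family was represented by receptors alone. Il6st, which encodes the shared signal transducer gp130, was at 49.7, 41.3 and 61.2 CPM in control and 48.8, 68.7 and 44.8 CPM in SS tumors. The groups overlapped fully (log2 fold change 0.09, SE 0.21, edgeR adjusted p = 0.95). Il11ra1, the IL-11 binding chain, was at 17.4 to 26.2 CPM in control and 16.04 to 20.01 CPM in SS tumors (log2 fold change -0.17, SE 0.21, edgeR adjusted p = 0.92). Mice carry a nearly identical Il11ra2 gene, so the origin of these reads is uncertain. Il6ra, the IL-6 binding chain, was at 0.205 to 0.395 and 0.238 to 0.591 CPM.

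Among the receptors of IL-4, IL-13 and the common gamma chain, Il13ra1, which pairs with Il4ra, was the most counted at 18.8, 30.2 and 32.2 CPM in control and 30.4, 33.2 and 27.6 CPM in SS tumors. Control tumor 1 was the single low value and the groups overlapped (log2 fold change 0.16, SE 0.22, edgeR adjusted p = 0.92). Il2rg, the common gamma chain itself, was at 0.328 to 0.736 CPM in control and 0.675 to 1.305 CPM in SS tumors, and Il2rb, which T and NK cells carry, was at 0 to 0.196 and 0 to 0.953 CPM. Neither had counts enough to be tested, and T cell markers summed to 16.8 to 83.1 CPM in control and 11.6 to 33.5 CPM in SS tumors. Il4i1 ranged from 0.164 to 0.790 CPM in control and from 0.0844 to 0.715 CPM in SS tumors.

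In the IL-10 family, Il10rb, a chain shared by the receptors of IL-10, IL-22 and interferon lambda, was at 1.5002, 2.65 and 3.57 CPM in control and 0.942, 2.74 and 1.77 CPM in SS tumors. These values overlapped (log2 fold change -0.52, SE 0.54, edgeR adjusted p = 0.91). Il20rb, a chain of the IL-20 and IL-24 receptors, was at 0.158 to 1.02 and 0.580 to 1.18 CPM, and its log2 fold change of 0.91 was uncertain by 0.79 (SE, edgeR adjusted p = 0.89). Il24, the ligand of the family in the table, was between 0 and 1.015 CPM. Outside the families, Il16, a chemoattractant of CD4+ cells, was the ligand with the highest count at 10.5 to 15.4 CPM in control and 7.97 to 13.9 CPM in SS tumors, and it overlapped (log2 fold change -0.15, SE 0.26, edgeR adjusted p = 0.94). Apart from Il18bp, Il17ra and Il1rapl1, the other 12 tested members had log2 fold changes of -0.52 to 0.91, and their lowest unadjusted edgeR p was 0.28.

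Members with several transcripts were examined for a shift in the share of each, for which Il11ra1 and Il1rap had counts enough. Transcript NM_001163401 held 91.3%, 78.2% and 89.0% of the Il11ra1 counts in control tumors and 99.8%, 65.4% and 98.6% in SS tumors. The SS tumors thus included both the highest and the lowest share. For Il1rap, transcript NM_008364 held 49.0%, 61.7% and 100% in control and 79.9%, 56.2% and 86.6% in SS tumors. The shorter NM_134103, which ends earlier in the gene at position 26702355 of chromosome 16, held 47.6% in control tumor 1, 0% in the other control tumors, and 0%, 16.5% and 13.4% in SS tumors. Of the 6 shares tested by the exact two-sided permutation test, all had an adjusted p of 1. Such counts are estimates that split shared reads between transcripts, and the spread within each group was larger than the differences between group means.

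**Figure D5:**
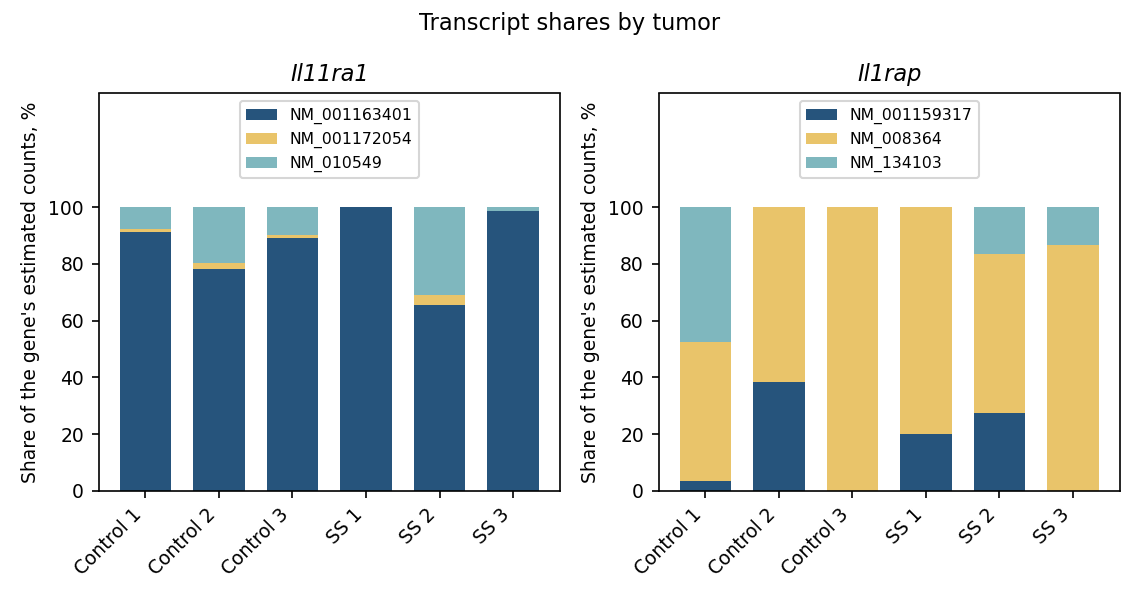
Share of the gene's counts assigned to each transcript of Il11ra1 and Il1rap in each tumor, in percent. The split varies from tumor to tumor within both groups, with NM_134103 of Il1rap at 47.6% in control tumor 1 and at 0% in the other 2 control tumors.

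The genes that carry interleukin signals onward were described from a list of 45, of which 38 were in the table and 34 were tested. Of these, 2 (5.88%) were higher in SS tumors at an unadjusted p under 0.05 by edgeR, close to the 6.36% of all genes tested, none was lower, and the median log2 fold change was 0.040. Without control tumor 2 or SS tumor 1, no gene of the list lay under that threshold. Clcf1, a ligand that signals through gp130, was at 4.42, 4.76 and 3.77 CPM in control and 6.81, 5.72 and 8.53 CPM in SS tumors, without overlap (log2 fold change 0.70, SE 0.27, edgeR adjusted p = 0.77). Cish, a STAT5-induced inhibitor of cytokine signaling, was at 8.61, 4.08 and 5.29 CPM in control and 12.1, 9.89 and 8.10 CPM in SS tumors. Its lowest SS tumor was under its highest control tumor (log2 fold change 0.75, SE 0.32, edgeR adjusted p = 0.77). The unadjusted edgeR p of Cish was 0.04998, barely under the threshold. The groups did not overlap for 5 of the 38 genes in the table (13.2%), again close to the 12.1% of all genes. Besides Clcf1, Crlf2, the TSLP receptor chain, stood apart at 1.28 to 2.01 CPM in control and 2.45 to 3.33 CPM in SS tumors, as did Csf2rb2, the mouse IL-3 receptor beta chain, at 0.902 to 1.18 and 1.55 to 1.81 CPM. The values of Tollip, a regulator of IL-1 signaling (4.86 to 5.45 and 4.05 to 4.28 CPM), and Nlrp3, an inflammasome sensor (1.96 to 3.63 and 1.38 to 1.77 CPM), were lower in each SS tumor. The main kinase and transcription factor of gp130 signaling were abundant in both groups, with Jak1 at 355.8 to 424.9 CPM in control and 328.4 to 365.3 CPM in SS tumors, and Stat3 at 226 to 243 and 226 to 254 CPM.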

How the data were processed

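Polyadenylated RNA of 6 tumors was sequenced with a stranded kit as paired reads of 75 nt. The deposited file holds estimated counts for 20648 RefSeq transcripts, and the authors' processing notes name CASAVA 1.8.1, Bowtie2 2.2.5, STAR 2.5.3a and mm10. The counting tool was not given in the sources used here, and the authors removed transcripts with little or no expression (each listed transcript had at least 10 counts over the 6 tumors). Here the counts were summed per symbol, 21 symbols altered to dates were restored from RefSeq, and the sums were rounded to whole numbers. CPM used TMM-scaled library sizes. Length came from GENCODE M21 transcripts matched by RefSeq accession.

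Groups were compared with edgeR 4.0.16 in R 4.3.3 (quasi-likelihood test, filterByExpr, Benjamini-Hochberg over 10902 genes), and with exact two-sided permutation tests over tumors for single values. The study's methods name quantile normalization and a t statistic, which raw counts do not suit, so limma 3.58.1 after quantile normalization was run as an alternative, as was DESeq2 1.42.0. The edgeR step was tested on simulated counts. The members and gene lists were chosen with earlier results of these data known. Named with values were members with an unadjusted p under 0.05, with groups that did not overlap or at 0 in a whole group, the highest ligand and receptor of each family, and both genes of a ratio. Sparse chains and signaling genes described beside them, and transcripts, were chosen after their values were seen. Of 4 planned ratios, 1 could be computed. Counting limits cover counting error only, and p-values measure the spread between 3 tumors a group. The 250-base windows came from RefSeq on GRCm38.p6. Some other genes are not reported here.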

Additional observations from a re-analysis of the deposited data

How the results depend on the processing

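The fit was repeated under 13 other settings and 1 added after the data were seen. edgeR or limma called 0 genes at an adjusted p under 0.05 under each of them, with 520 to 877 genes at an unadjusted p under 0.05, whereas DESeq2 called 35 genes, or 37 with no filter on low counts. In the main fit the filter on low counts left 13 members untested. Il18bp kept an unadjusted p under 0.05 in 13 of the 14 settings and Il17ra in 8. Il1rapl1, at 0 in each SS tumor, was tested only through its control tumors, so its p says nothing about stability. With DESeq2 and no filter, its log2 fold change was -6.89 (adjusted p = 0.0048). The number of members at an unadjusted p under 0.05 was 1 to 4 with 1 tumor left out. It was 1 of 16 tested (Il1rapl1) without SS tumor 1, beside 554 of 11240 genes tested. Without control tumor 3 it was 4 of 15, beside 520 of 11342 genes, where Il20rb joined at a log2 fold change of 2.14. Without SS tumor 3 it was 3 of 19, beside 675 of 11441 genes, where Il2rb joined. Il2rb had 0, 4 and 3 counts in control and 10, 8 and 0 in SS tumors. In these fits Il20rb and Il2rb passed the count filter only through SS tumors, so a difference was built into their being tested. Members whose groups did not overlap numbered 7 to 9 with 1 tumor left out, when 20.1 to 23.6% of all genes did not overlap. After quantile normalization they numbered 3, since Il4ra and Il34 overlapped and Il21r was not covered. The signaling list held 1 gene under the threshold with RLE or upper-quartile factors, the stricter filter or DESeq2 with no filter. With quantile normalization it held 6, beside 649 of all 10902 genes tested. With 1 tumor left out it held 0 to 2 (0 without control tumor 2 or SS tumor 1).

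Tumors with the same number did not deviate together (correlations 0.116, 0.0205 and 0.0767 for numbers 1, 2 and 3), so the numbers were not taken as pairs. With the replicate block, edgeR called 0 genes at an adjusted p under 0.05 and 643 at an unadjusted p under 0.05, and the members under it were still Il17ra, Il18bp and Il1rapl1. Il17rd turned to -0.033 with the block and to -0.066 with quantile normalization. With 1 tumor left out, log2 fold changes crossed 0 for Il11ra1 (-0.27 to 0.047), Il13ra1 (-0.039 to 0.31), Il16 (-0.34 to 0.043), Il17rd (-0.24 to 0.41), Il1rap (-0.13 to 0.44) and Il6st (-0.12 to 0.25), and so did the difference in the log2 ratio of Il1rn to Il1b (-0.52 to 0.35). The differences in transcript share crossed 0 as well, in percentage points, for NM_001163401 (-4.21 to 13.03), NM_001172054 (-1.30 to 0.42), NM_010549 (-11.7 to 3.79), NM_001159317 (-5.10 to 14.0), NM_008364 (-6.62 to 18.9) and NM_134103 (-13.8 to 9.99). The cause of these changes was not tested beyond the tumor or setting left out.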

Other observations

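Il1rapl1 shared with some other genes the pattern of at least 10 counts in each control tumor and 0 counts in each SS tumor. Among them were Ddx4 with 12, 10 and 12 control counts, Gabrb1 with 21, 15 and 20, Otx2 with 28, 19 and 13, and Tbx20 with 38, 16 and 29. No gene showed the reverse.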
